A study of Mus musculus with 16 samples.

Results

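The ileal RNA levels of 9 genes were examined: the transcriptional repressors Bcl6 and Bcl6b, the corepressors Bcor and Ncor1, the transcription factors Stat5a and Stat5b, the feedback inhibitors Cish and Socs2, and the growth factor Igf1. They were chosen by gene symbol from the 24940 genes of the deposited count table, and all 9 were found there and passed the filter on low counts in every comparison. RNA was sequenced from 16 pieces of terminal ileum, the 1 cm next to the cecum, from C57BL/6 mice. All mice, controls included, were Bcl6 fl/fl, meaning that both copies of Bcl6 carried loxP sites for Cre recombinase. The 4 groups, of 4 libraries each, were male WT and female WT, which carried these alleles without Cre, and male LKO and female LKO (Bcl6LKO), which also carried Cre driven by the albumin promoter. That promoter is active in hepatocytes, so the deletion was made in the liver and the ileal gene was left intact by design, and its level here does not check the deletion. The labels gave no age, and the methods state ad libitum feeding or a 4-h fast for the study as a whole.

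BCL6 is a zinc-finger repressor that recruits corepressor complexes containing BCOR, NCOR or SMRT, and it is best known from germinal center B cells and from male-biased gene repression in the liver. STAT5A and STAT5B are activated by JAK kinases downstream of the growth hormone, prolactin, erythropoietin and common gamma chain cytokine receptors, and they induce Cish, Socs2 and, in growth hormone-responsive tissue, Igf1. CISH and SOCS2 feed back on those receptors, and BCL6 and STAT5 can bind overlapping DNA elements in the liver.

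Sequences that match a STAT consensus can be read in the genes of a STAT5 target and of BCL6 itself. RefSeq promoter windows (GRCm38.p6, from 250 bases before to 50 bases after an annotated start) were matched for 7 of the 9 genes, in 12 windows. Bcl6b and Socs2 had no entry. The STAT consensus TTCNNNGAA, which reads the same on both strands, was found in 6 of the 12 windows, against 8.30% of all 32851 windows. The 6 windows belonged to 4 of the 7 genes (Cish, Ncor1, Bcl6 and Bcor), some genes had several windows, and a pair of overlapping Bcor windows held the same match, so that 9 matches in windows stood for 8 positions. The stretches with 2 matches in Cish, beginning 0 and 11 bases downstream of the start, and 3 matches in Bcl6, ending 80 bases upstream of the start, are shown because they hold several matches close together, with the matches in capitals.
Cish chr9:107296649-107296678, plus strand: ccgcccagttTTCCTGGAAagTTCTTGGAA
Bcl6 chr16:23981343-23981471, minus strand: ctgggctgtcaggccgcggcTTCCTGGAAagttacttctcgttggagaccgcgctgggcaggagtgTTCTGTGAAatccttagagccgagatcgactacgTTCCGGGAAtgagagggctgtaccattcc
The stricter sequence TTCCTAGAA, a form of TTCNNNGAA that also fits the BCL6 consensus, was present in 0.411% of all windows and, among the 12, in the Ncor1 window from 5 to 13 bases downstream of its start. These matches describe letters only, and no binding was measured.

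The libraries held between 15.7 and 20.5 M gene counts, except for female LKO replicate 1 with 60.3 M (median 18.1 M). Levels are given as CPM, a library's count over its total counts in M, scaled by the trimmed mean of M-values (TMM). Xist lay between 368 and 533 CPM in female libraries and at most at 0.282 CPM in male libraries, and Ddx3y was at 0 in every female library. The ileal markers Fabp6 (2662 to 5436 CPM) and Slc10a2 (426 to 820 CPM) were high in every library, whereas the hepatocyte gene Alb lay between 0.333 and 3.31 CPM and Cyp7a1 was at 0 counts in all 16. The summed level of 15 B-cell follicle markers stood apart in 4 libraries, at 161 CPM in male WT replicate 2, 102 CPM in female WT replicate 3, and 273 and 502 CPM in female LKO replicates 2 and 3, against 35.3 to 54.5 CPM in the other 12. Results below are therefore also given without these 4 libraries where that matters. In bulk tissue, fewer cells of a type and less RNA per cell cannot be told apart.

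All 9 genes were detected in every library, from 36 counts for Bcl6b to 9869 counts for Ncor1. Per kilobase of exon, the mean over 16 libraries was highest for Socs2 (26.0 CPM per kb) and Ncor1 (21.0 CPM per kb). Stat5b (6.98 CPM per kb), Cish (6.00 CPM per kb) and Bcor (5.11 CPM per kb) followed. Bcl6 (3.57 CPM per kb), Stat5a (3.19 CPM per kb) and Igf1 (1.36 CPM per kb) were lower, and Bcl6b (0.849 CPM per kb) was lowest. The annotated exons of Cish overlap the antisense genes Gm17040 and Gm17041 by 261 and 321 bases, those of Stat5a overlap Stat3 by 72 bases, those of Ncor1 overlap Pigl by 82 bases and Ttc19 by 1 base, and those of Bcl6 overlap Gm37419 by 21 bases, all on opposite strands. The library kit keeps strand, but the strand setting of the counting is not given in the sources used here, so reads in these overlaps are uncertain.

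**Figure D1:**
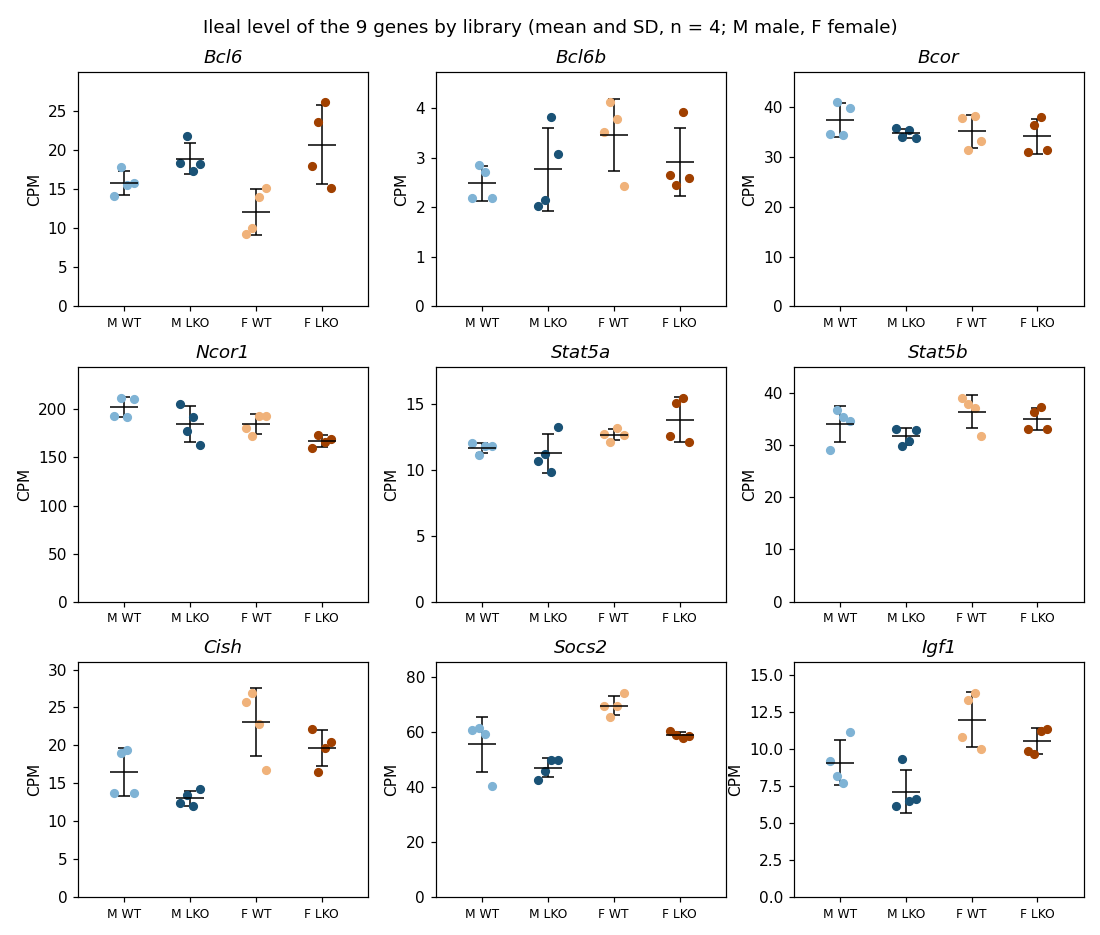
TMM-scaled CPM of each of the 9 genes (vertical axes, all starting at 0) in the 4 libraries of each group, with lines for the mean and bars for the SD (n = 4; M, male; F, female; blue, male; orange, female; darker, LKO). Bcl6 is lowest in female WT, where the mean is 12.1 CPM, while Socs2 is highest in female WT with no overlap with any other group.

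To determine whether hepatic deletion altered the ileal level of the repressor itself, Bcl6 (NM_001348026, mm10 chromosome 16, 23965050 to 23981283, minus strand) was compared first. The 4 male WT libraries, in replicate order, held 14.1, 17.8, 15.5 and 15.8 CPM, and the 4 male LKO libraries held 18.4, 21.8, 17.3 and 18.2 CPM. The 4 female WT libraries held 9.25, 9.996, 14.03 and 15.1 CPM, and the 4 female LKO libraries held 17.97, 23.6, 26.1 and 15.2 CPM. Female LKO thus lay above female WT in every library, by a margin that was small between female LKO replicate 4 and female WT replicate 4, and the male groups overlapped through male WT replicate 2. Group means ran from female LKO (20.7 ± 5.03 CPM, SD, n = 4) through male LKO (18.9 ± 1.97) and male WT (15.8 ± 1.55) to female WT (12.1 ± 2.91), and each neighboring pair in that order overlapped.

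Over both sexes with sex as a covariate, Bcl6 was 1.43 times as high in LKO as in WT (95% interval 1.17 to 1.74; log2 fold change 0.51, SE 0.13). It did not pass the edgeR quasi-likelihood test after Benjamini-Hochberg adjustment over 15598 genes (adjusted p = 0.121; unadjusted p = 0.00136), and it passed DESeq2 (adjusted p = 0.0139). Among females alone LKO exceeded WT by 0.77 on the log2 scale (SE 0.21; edgeR adjusted p = 0.285, DESeq2 adjusted p = 0.0190), and among males by 0.26 (SE 0.11; edgeR adjusted p = 0.879, DESeq2 adjusted p = 0.874). The genotype difference in males minus that in females was -0.52 (SE 0.24), which did not pass over all genes in edgeR (unadjusted p = 0.0454, adjusted p = 0.845).

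The B-cell-rich libraries included the pair with the most Bcl6, female LKO replicates 2 and 3, and their part in the genotype difference was measured by leaving the 4 libraries out. Bcl6 then differed by 0.41 on the log2 scale over both sexes (SE 0.11; edgeR adjusted p = 0.254) and by 0.55 in females (SE 0.20; edgeR adjusted p = 0.671). The genotype difference in males minus that in females was -0.23 in place of -0.52 (-0.24 with the B-cell follicle level as a covariate). With the B-cell follicle level as a covariate, the difference over both sexes was 0.44 (SE 0.093) and passed the edgeR test (adjusted p = 0.0393). In WT libraries Bcl6 was 0.38 log2 units higher in males than in females (SE 0.15; edgeR adjusted p = 0.287), which became 0.12 with sets of neighboring sample numbers from the titles as a factor or 0.24 with the number as a linear covariate. The labels do not say what these numbers mark. In LKO libraries the male minus female difference was -0.13 (SE 0.16; edgeR adjusted p = 0.663), and it turned to 0.18 without the B-cell-rich libraries.

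Bcl6b (NM_007528, chromosome 11, 70224127 to 70229798, minus strand), a close relative that shares the zinc-finger and BTB repressor design, was the least abundant of the 9. Its libraries ranged from 2.18 to 2.86 CPM in male WT, 2.03 to 3.82 in male LKO, 2.42 to 4.11 in female WT and 2.44 to 3.93 in female LKO. All 4 groups overlapped. The LKO minus WT difference over both sexes was -0.06 on the log2 scale (SE 0.16; edgeR adjusted p = 0.932), and the WT male minus female difference was -0.48 (SE 0.20; edgeR adjusted p = 0.307).

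Bcor (NM_029510, chromosome X, 12036738 to 12080553, minus strand), which binds the BTB domain of BCL6 and joins a Polycomb complex, lay between 31.0 and 41.0 CPM in the 16 libraries. Its 4 group means, between 34.2 and 37.5 CPM, overlapped throughout, and the LKO minus WT difference over both sexes was -0.08 (SE 0.060; edgeR adjusted p = 0.689). Ncor1 (NM_001252313, chromosome 11, 62316426 to 62438515, minus strand), a scaffold for histone deacetylase 3, was measured with the most counts.

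The 4 male WT libraries held 194, 212, 192 and 210 CPM of Ncor1, and the 4 male LKO libraries held 206, 178, 192 and 163 CPM. The 4 female WT libraries held 180, 172, 193 and 193 CPM, and the 4 female LKO libraries held 159, 174, 166 and 169 CPM. The means were lower in LKO than in WT in each sex, and the groups overlapped in both sexes. The LKO minus WT log2 difference was -0.14 over both sexes (SE 0.048; edgeR adjusted p = 0.264), -0.13 in males (SE 0.077; edgeR adjusted p = 0.999) and -0.14 in females (SE 0.061; edgeR adjusted p = 0.405).

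Stat5a and Stat5b are neighbors on chromosome 11, transcribed away from each other from intervals 8765 bases apart (Stat5b, NM_001113563, 100780731 to 100850585, minus strand; Stat5a, NM_011488, 100859351 to 100885169, plus strand). Per length, Stat5a stood at 0.383 to 0.528 times the level of Stat5b (median 0.458 over 16 libraries). Stat5b, the form chiefly linked to growth hormone signaling, had group means of 34.0 CPM in male WT, 31.6 in male LKO, 36.4 in female WT and 35.0 in female LKO, and all 4 groups overlapped. Its LKO minus WT log2 difference over both sexes was -0.08 (SE 0.057; edgeR adjusted p = 0.654).

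Stat5a, the form chiefly linked to prolactin signaling in the mammary gland, was measured at 12.01, 11.1, 11.8 and 11.8 CPM in the 4 male WT libraries and at 12.8, 12.1, 13.2 and 12.6 CPM in the 4 female WT libraries. The WT sexes did not overlap, although the log2 difference was only -0.12 (male minus female; SE 0.095; edgeR adjusted p = 0.610). The 4 male LKO libraries held 10.6, 11.2, 9.87 and 13.3 CPM, and the 4 female LKO libraries held 12.5, 15.1, 15.5 and 12.1 CPM, so the sexes overlapped in LKO. The highest Stat5a values were those of female LKO replicates 2 and 3, which were also the richest in B-cell markers. The genotype difference over both sexes was 0.04 (SE 0.075; edgeR adjusted p = 0.904), and it was -0.05 without the B-cell-rich libraries.

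Socs2 (NM_007706, chromosome 10, 95411490 to 95416857, minus strand), which dampens growth hormone receptor signaling, held 60.7, 61.4, 59.2 and 40.4 CPM in male WT and 42.6, 45.6, 49.7 and 49.7 CPM in male LKO. It held 69.3, 65.4, 69.4 and 74.2 CPM in the 4 female WT libraries and 60.4, 59.0, 57.6 and 58.6 CPM in the 4 female LKO libraries. Every female LKO library lay below every female WT library. In males, 3 WT libraries lay above all LKO libraries and male WT replicate 4 lay below them.

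Over both sexes Socs2 in LKO was 0.848 times its WT level (95% interval 0.768 to 0.936; log2 -0.24, SE 0.066; edgeR adjusted p = 0.133, DESeq2 adjusted p = 0.0620). In females the log2 difference was -0.23 (SE 0.058; edgeR adjusted p = 0.206, DESeq2 adjusted p = 0.0458), and in males it was -0.24 (SE 0.12; edgeR adjusted p = 0.976). Without male WT replicate 4 the log2 difference over both sexes was -0.30 and passed the edgeR test (adjusted p = 0.00502). That was the only 1 of 28 alternatives in which Socs2 passed over both sexes. Other settings made it smaller: it was -0.15 with the sample number sets (edgeR adjusted p = 0.727). Without the B-cell-rich libraries it was -0.20 (edgeR adjusted p = 0.565). The genotype differences in the 2 sexes differed by -0.01 (SE 0.14; edgeR adjusted p = 0.997).

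Cish (NM_009895, chromosome 9, 107296659 to 107302784, plus strand), the gene with the paired consensus sequences shown above, is induced by STAT5 and blocks its docking to cytokine receptors. The male WT libraries held 13.7, 19.0, 19.3 and 13.7 CPM, and the male LKO libraries held 12.4, 13.4, 12.04 and 14.3 CPM. The female WT libraries held 25.7, 26.9, 22.9 and 16.8 CPM, and the female LKO libraries held 22.2, 16.5, 19.6 and 20.4 CPM. The genotypes overlapped in each sex. The LKO minus WT log2 difference was -0.27 over both sexes (SE 0.10; edgeR adjusted p = 0.283), -0.33 in males (SE 0.13; edgeR adjusted p = 0.869) and -0.22 in females (SE 0.14; edgeR adjusted p = 0.559). With the sample number sets as a factor, these became -0.06, -0.15 and -0.03. Every male WT number was lower than every male LKO number. The male value with the sets rests on male WT replicate 4 against male LKO replicate 1, since no other set held both male genotypes. In females the value also ranged from -0.34 without female WT replicate 4 to -0.14 without female WT replicate 2, and was -0.11 without the B-cell-rich libraries.

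Igf1 (NM_010512, chromosome 10, 87859052 to 87937047, plus strand), the secreted growth factor induced by growth hormone in liver, held 9.22, 8.19, 7.72 and 11.2 CPM in male WT and 6.13, 9.33, 6.46 and 6.59 CPM in male LKO. It held 10.8, 13.3, 13.8 and 10.003 CPM in female WT and 9.89, 9.64, 11.2 and 11.3 CPM in female LKO. Male LKO replicate 2 was the library that made the male genotypes overlap, and the female genotypes overlapped broadly. The LKO minus WT log2 difference was -0.27 over both sexes (SE 0.11; edgeR adjusted p = 0.320), -0.35 in males (SE 0.16; edgeR adjusted p = 0.936) and -0.18 in females (SE 0.12; edgeR adjusted p = 0.563). In males it became -0.23 without male WT replicate 4 and -0.87 with the number sets, and in females -0.11 without female WT replicate 3 and -0.08 with the number sets. The -0.87 compares male WT replicate 4 with male LKO replicate 1, the only males in a set that held both male genotypes.

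Counted together, 0 of the 9 genes passed edgeR for LKO against WT in males, where 0.0527% of all genes tested passed, 0 in females (background 0.0392%), 0 over both sexes (background 0.269%) and 0 for the difference of the genotype effect between the sexes (background 0%). At an unadjusted p below 0.05, edgeR gave 3 of 9 in males (background 5.29%), 3 in females (11.7%), 5 over both sexes (11.2%) and 1 for the difference of the genotype effect between the sexes (5.64%). The 5 over both sexes were Bcl6, higher in LKO, and Ncor1, Cish, Socs2 and Igf1, lower in LKO. DESeq2 called 0 in males (background 0.416%), 2 in females (Bcl6 and Socs2; 1.07%), 1 over both sexes (Bcl6; 1.49%) and 0 for the difference of the genotype effect between the sexes (0%). The groups did not overlap for Bcl6 and Socs2 in females (background 6.3%) and for no member in males (2.87%). The 9 genes were chosen with earlier results of these data known, so counts and backgrounds are set side by side as description only.

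**Figure D2:**
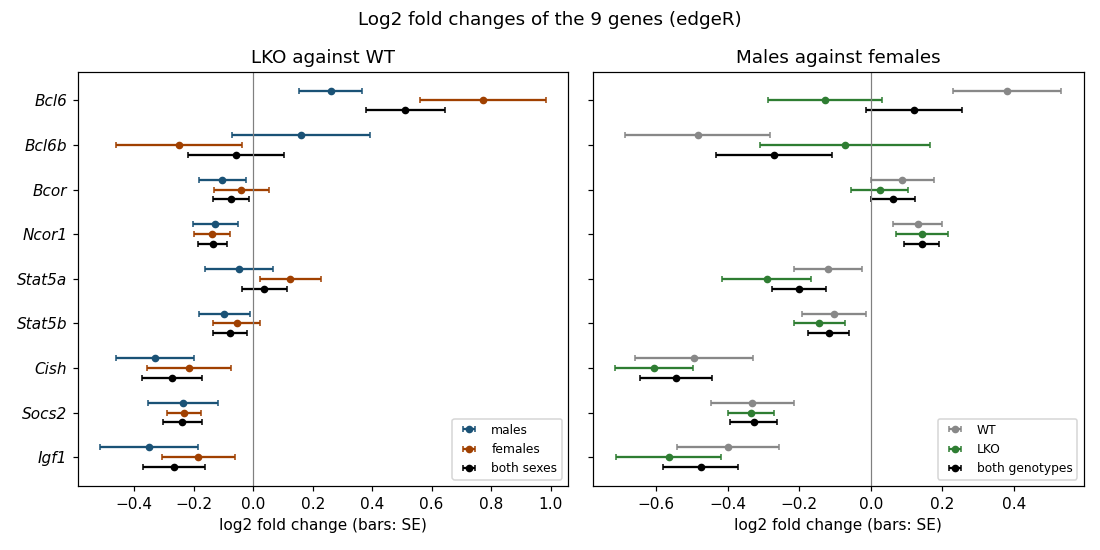
Log2 fold changes of the 9 genes from edgeR with SE bars, on the left for LKO against WT in males, females and both sexes, and on the right for males against females in WT, LKO and both genotypes. On the left Bcl6 lies to the right of 0 (0.26 in males, 0.77 in females), and on the right Cish, Socs2 and Igf1 lie to the left of 0 in each fit.

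The sexes were then compared within each genotype. In WT libraries 0 of the 9 genes passed edgeR for males against females (background 0.25%; 5 at an unadjusted p below 0.05, background 13.9%; 0 by DESeq2, 1.86%), and the sexes did not overlap for 2, Stat5a and Socs2 (background 8.16%). In LKO libraries 0 passed edgeR (background 0.0984%; 4 at an unadjusted p below 0.05, 22.6%), 3 passed DESeq2 (7.42%), and the sexes did not overlap for those 3 genes, Cish, Socs2 and Igf1 (background 12.9%). Their male minus female log2 differences in LKO were -0.61 for Cish (SE 0.11; edgeR adjusted p = 0.0612, DESeq2 adjusted p = 0.000333), -0.33 for Socs2 (SE 0.064; 0.0612 and 0.00131) and -0.56 for Igf1 (SE 0.15; 0.0801 and 0.0137). In WT the same genes differed by -0.49 (SE 0.16), -0.33 (SE 0.12) and -0.40 (SE 0.14), with edgeR adjusted p of 0.231, 0.249 and 0.248.

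A comparison of males with females over all 16 libraries, with genotype as a covariate, was added after the data were seen. Cish, Socs2 and Igf1 were lower in males, 3 of 9 genes against a background of 11% of genes passing in either direction and 5.44% lower in males (DESeq2 called 4 of 9, background 16.1%). Cish in males stood at 0.686 times its female level (95% interval 0.590 to 0.797; log2 -0.54, SE 0.10; edgeR adjusted p = 0.00452). Socs2 stood at 0.797 times (0.722 to 0.880; log2 -0.33, SE 0.066; edgeR adjusted p = 0.00668) and Igf1 at 0.719 times (0.614 to 0.842; log2 -0.48, SE 0.11; edgeR adjusted p = 0.0103). DESeq2 also called Ncor1, higher in males by 0.14 (adjusted p = 0.0323), which did not pass edgeR (adjusted p = 0.0612) except without male LKO replicate 4 (0.16; adjusted p = 0.0334). The other 5 genes passed neither test, with log2 differences from -0.27 for Bcl6b to 0.12 for Bcl6.

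The sample numbers in the titles tended to run lower in females than in males, and the calls for Cish and Igf1 were lost when those numbers entered the fit. With sets of neighboring numbers as a factor, the edgeR adjusted p was 0.0720 for Cish and 0.120 for Igf1, at log2 differences of -0.46 and -0.52, and with the number as a linear covariate it was 0.0569 and 0.0575, at differences of -0.43 and -0.48. Socs2 passed in both (adjusted p of 0.0204 and 0.0388). Without the 4 B-cell-rich libraries Igf1 differed by -0.42 with an adjusted p of 0.0604, while Cish and Socs2 passed (0.00983 and 0.0213).

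Markers of other cell types moved with sex too. Of 12 smooth muscle and stroma markers, 7 passed edgeR as lower in males, against 5.44% of all genes (median log2 difference -0.33), and their summed level spanned 4539 to 5353 CPM among male libraries against 5220 to 7404 CPM among female libraries. Of 12 T cell markers tested, 3 were lower in males (median -0.34; summed level 89.2 to 133 CPM in male and 90.1 to 202 CPM in female libraries). Of 12 macrophage and 12 endothelium markers, 1 each was lower (medians -0.12 and -0.15), and 0 of 14 B-cell follicle markers tested passed edgeR (median -1.32; 2 at an unadjusted p below 0.05). Across libraries, the mean log2 CPM of the smooth muscle and stroma markers had Pearson r of 0.62 with Cish, 0.51 with Socs2 and 0.51 with Igf1. Permutation tests gave adjusted p of 0.0588, 0.133 and 0.133, and r within groups was 0.35, 0.19 and 0.09. The part of these markers in the sex differences of Cish, Socs2 and Igf1 was not tested.

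**Figure D3:**
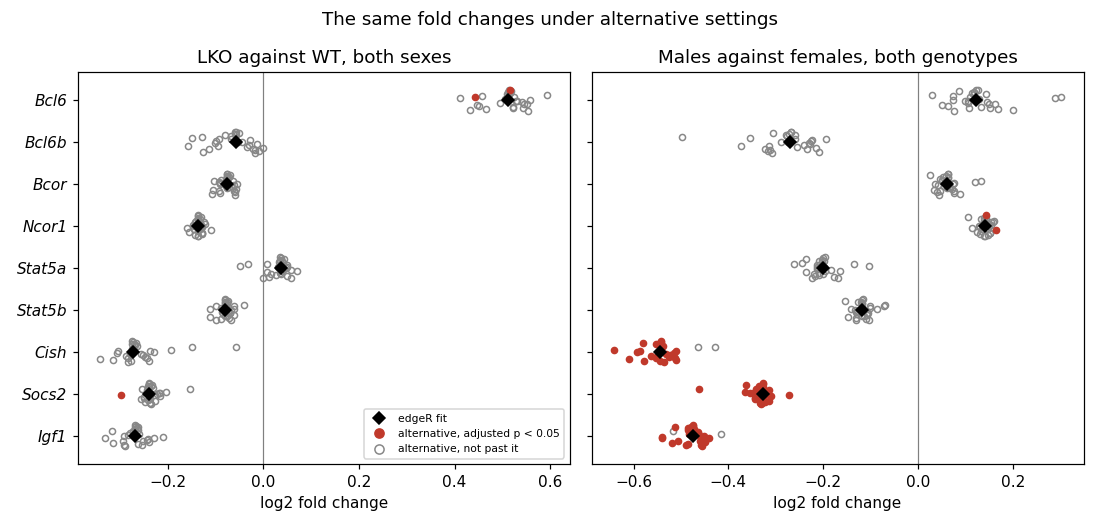
Log2 fold change of each of the 9 genes from edgeR (black diamonds) and under the alternative settings tried (circles, filled where the adjusted p was below 0.05), on the left for LKO against WT over both sexes and on the right for males against females over both genotypes. Socs2 passes under every alternative on the right, from -0.46 to -0.27, while Cish and Igf1 pass in all but 2 and 3 of 28.

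The levels of the 9 genes were set against those of 5 cell type marker lists (mean log2 CPM) over the 16 libraries, which gave 45 relations. Of these, 4 passed a permutation test with Benjamini-Hochberg adjustment over the 45. Ncor1 was lower where smooth muscle and stroma markers were higher (Pearson r = -0.75, permutation p = 0.00077, adjusted p = 0.0346; Spearman rho = -0.79, permutation p = 0.00046; r = -0.79 once the 2 libraries most distant from the median marker level were left out). It was also lower where macrophage markers were higher (r = -0.71, permutation p = 0.00281, adjusted p = 0.0421; rho = -0.72, permutation p = 0.00257; r = -0.67 without the 2 farthest).

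Stat5b was higher where T cell markers were higher (r = 0.70, permutation p = 0.00213, adjusted p = 0.0421; rho = 0.75, permutation p = 0.00111; r = 0.73 without the 2 farthest), and so was Cish (r = 0.67, permutation p = 0.00444, adjusted p = 0.0499; rho = 0.74, permutation p = 0.00185; r = 0.84 without the 2 farthest). Cish and macrophage markers had r of 0.60, which did not pass (permutation test, adjusted p = 0.0741). Within groups, after subtracting group means, the 4 relations that passed had r of -0.65, -0.61, 0.68 and 0.62, and 0 of 45 passed the adjustment (adjusted p of 0.0839, 0.0839, 0.0934 and 0.206). Cish and macrophage markers had r of 0.76 within groups (permutation test, adjusted p = 0.0839). CISH is also made by activated T cells, and which cells carried the Cish RNA here was not tested. No single r is given for Bcl6 and B-cell follicle markers, since 4 libraries stood apart in that marker level. Among those 4, Bcl6 was at 23.6 and 26.1 CPM in the female LKO pair and at 17.8 and 14.03 CPM in male WT replicate 2 and female WT replicate 3.

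**Figure D4:**
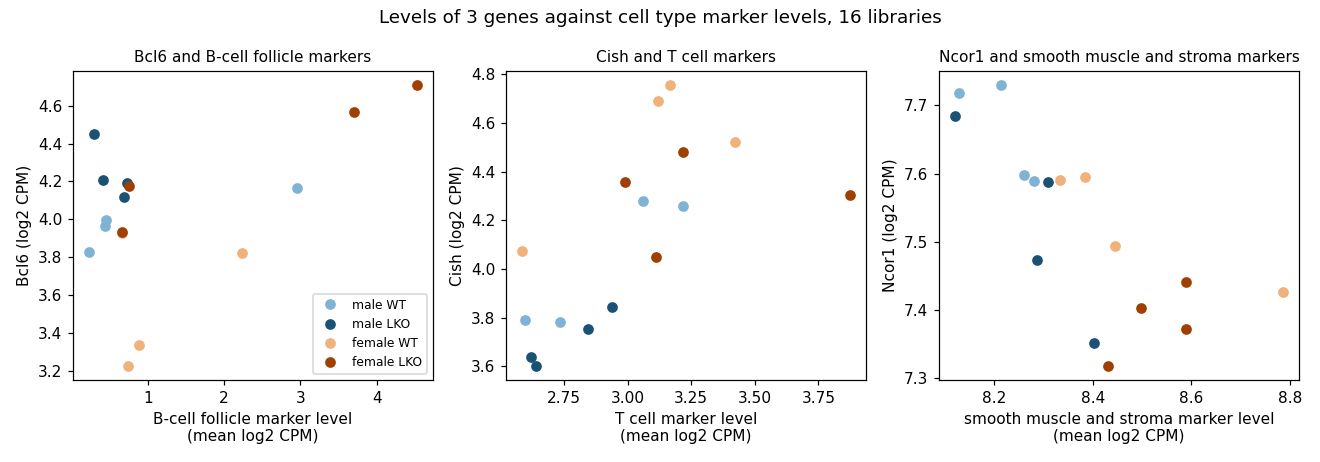
Log2 CPM of Bcl6, Cish and Ncor1 (vertical axes) against the mean log2 CPM of B-cell follicle, T cell, and smooth muscle and stroma markers (horizontal axes), with a point for each of the 16 libraries colored by group. The 4 libraries above 2 on the B-cell axis stand apart in the left panel, Cish climbs with the T cell markers (r = 0.67), and Ncor1 falls with the stromal markers (r = -0.75).

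Relations among the 9 genes themselves were computed after the data were seen, for 36 pairs. The adjustment was passed by 3 pairs, all with Cish: with Socs2 (r = 0.74, permutation p = 0.00106, adjusted p = 0.0297; rho = 0.69, permutation p = 0.00384; r = 0.74 without the 2 farthest libraries), with Stat5b (r = 0.73, permutation p = 0.00165, adjusted p = 0.0297; rho = 0.69, permutation p = 0.00393; r = 0.66) and with Igf1 (r = 0.69, permutation p = 0.00374, adjusted p = 0.0449; rho = 0.71, permutation p = 0.00254; r = 0.55). Within groups these fell to r of 0.20, 0.55 and 0.01, and 0 of 36 passed.

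The genes most alike to each member over the 16 libraries were taken among 14571 genes by Pearson r of log2 CPM, as a description. The transcriptional repressors were followed by Marcksl1 (0.89), Tmem198 (0.87) and Pym1 (0.86) for Bcl6 and by Zfpm1 (0.85), Zbtb1 (0.85) and Mdga1 (0.82) for Bcl6b. Bcor was followed by Polr2a (0.90), Med12 (0.88) and Rest (0.85), and Ncor1 by Nbr1 (0.93), Ccser2 (0.93) and Efr3a (0.92). Rtl6 (0.90), Dnase2a (0.88) and Pygl (0.87) came nearest to Stat5a, and Prrc2b (0.87), Kmt2a (0.86) and Myh10 (0.85) to Stat5b. For the targets these were Apol7e (0.90), Rgs12 (0.88) and Scube1 (0.88) with Cish, Itga8 (0.89), Gstm4 (0.88) and Col13a1 (0.87) with Socs2, and Trps1 (0.90), Fyb (0.89) and Srpk2 (0.88) with Igf1. The libraries share depth and tissue composition across these pairs.

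The wider pathways were read from 6 lists. Of the 97 listed genes tested for LKO against WT, 0 passed edgeR in males, females or both sexes, while DESeq2 called 1 in males (Cxcl10; background 0.416%), 4 in females (Il3ra, Prlr, Socs2 and Insr; background 1.07%) and 0 over both sexes (background 1.49%). The list medians below are log2 differences over both sexes, where the median of all genes was 0.00065. Among 24 BCL6 corepressors and cofactors (median -0.0030), the smallest p belonged to Tbl1x, an exchange factor of the NCOR complex (-0.27, SE 0.087; edgeR adjusted p = 0.207), and to Ncor1. Among 20 genes known to be repressed by BCL6 (median 0.02), they belonged to Trp53, the p53 gene (0.12, SE 0.039; edgeR adjusted p = 0.209), and Bcl2l1, an antiapoptotic gene that STAT5 can also induce (0.12, SE 0.054; edgeR adjusted p = 0.395). Cxcl10, an interferon-induced chemokine gene of the same list, averaged 5.75 ± 0.645 CPM in male WT and 9.93 ± 1.48 CPM in male LKO, without overlap, and 9.80 ± 2.74 and 9.57 ± 3.02 CPM in female WT and LKO (SD, n = 4 each). Its LKO minus WT log2 difference was 0.79 in males (SE 0.14; edgeR adjusted p = 0.0669, DESeq2 adjusted p = 0.000665) and -0.0041 in females (SE 0.27; edgeR adjusted p = 0.995). The genotype difference in males minus that in females was 0.79 (SE 0.31; edgeR adjusted p = 0.845). Of 11 JAK kinases and STAT factors (median -0.0093), Stat3 (0.12, SE 0.041; edgeR adjusted p = 0.257) and Stat6 (-0.06, SE 0.044; edgeR adjusted p = 0.628) were first.

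Receptors that signal through STAT5 had the highest list median (0.11 over 15 tested). Il3ra, the alpha chain of the interleukin 3 receptor, averaged 4.53 ± 0.480 CPM in female WT and 7.63 ± 1.21 CPM in female LKO (SD, n = 4 each), where the groups did not overlap, and 4.18 ± 0.656 and 4.43 ± 0.322 CPM in male WT and LKO. Its LKO minus WT log2 difference was 0.43 over both sexes (SE 0.13; edgeR adjusted p = 0.160, DESeq2 adjusted p = 0.0616) and 0.75 in females (SE 0.15; edgeR adjusted p = 0.131, DESeq2 adjusted p = 0.00654). The genotype difference of Il3ra in males minus that in females was -0.66 (SE 0.21; edgeR adjusted p = 0.845). Prlr, the prolactin receptor, averaged 74.1 ± 6.80 CPM in female WT and 58.4 ± 3.60 CPM in female LKO, again without overlap, and 68.3 ± 7.98 and 63.1 ± 4.62 CPM in male WT and LKO. Its log2 difference was -0.23 over both sexes (SE 0.065; edgeR adjusted p = 0.137, DESeq2 adjusted p = 0.0649) and -0.34 in females (SE 0.077; edgeR adjusted p = 0.189, DESeq2 adjusted p = 0.0226).

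Among 16 STAT5 target and feedback genes tested (median 0.03), Socs2 and Cish had the smallest p. The growth hormone and IGF list (median -0.02 over 17 tested) was led by Irs2, an adaptor of the insulin and IGF1 receptors (-0.24, SE 0.073; edgeR adjusted p = 0.170), and Insr, the insulin receptor gene (-0.18, SE 0.063; edgeR adjusted p = 0.263). In females Insr differed by -0.28 (SE 0.070; edgeR adjusted p = 0.206, DESeq2 adjusted p = 0.0435).

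By sex within a genotype, 0 listed genes passed edgeR. DESeq2 called 2 of 97 in WT, Cxcl10 (-0.77, SE 0.19; adjusted p = 0.0154) and Il7r (-0.65, SE 0.14; adjusted p = 0.00344), against a background of 1.86%. In LKO it called 10 of 96, all lower in males, against a background of 7.42%. These were Cish, Socs2, Igf1, Igfbp4, Igfbp7, Il3ra, Il7r, Csf2ra, Il2rg and Ccnd3. The counts of 2 of 97 and 10 of 96 are near their backgrounds and are not read as results about the lists. A background for the lower direction alone was not taken. Female LKO replicates 2 and 3 were B-cell-rich, and Il2rg ranged from 23.7 to 52.1 CPM in female LKO. Values of these list genes without the B-cell-rich libraries are not given here.

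For males against females over both genotypes, where 11% of all genes passed and 5.44% passed as lower in males, 4 of 17 genes of the growth hormone and IGF list passed edgeR, with Igf1, Igfbp4 (-0.22, SE 0.044; adjusted p = 0.00656) and Igfbp7 (-0.28, SE 0.062; adjusted p = 0.0109) lower and Stc2 (0.43, SE 0.13; adjusted p = 0.0364) higher in males. The list median was -0.22, against -0.0013 for all genes. Igf1 was already counted among the members. In the same comparison 7 of 12 smooth muscle and stroma markers were lower in males (median -0.33), and their part in the values of this list was not tested. IGFBP4 and IGFBP7 are secreted binding proteins, and STC2 inhibits a protease that cleaves IGFBP4. Of 15 receptors, 2 were lower in males and 0 higher (median -0.21), Il7r (-0.57, SE 0.10; edgeR adjusted p = 0.00363), a lymphocyte receptor, and Il3ra (-0.46, SE 0.13; edgeR adjusted p = 0.0278). Of 16 STAT5 targets, 3 passed as lower and 0 as higher (median -0.0057). Those 3 were Cish, Socs2 and Igf1, members already counted above. By sign alone, 8 of the 16 were lower and 8 higher. Of 20 BCL6-repressed genes, Prdm1 (0.34, SE 0.10; edgeR adjusted p = 0.0456) and Nfkb1 (0.12, SE 0.036; edgeR adjusted p = 0.0383) were higher and Id2 (-0.20, SE 0.060; edgeR adjusted p = 0.0343) was lower in males, and of 24 corepressors Ring1 alone passed (-0.18, SE 0.055; edgeR adjusted p = 0.0395). With 11% as the background, the counts of 2 of 15 receptors, 3 of 16 STAT5 targets, 3 of 20 BCL6-repressed genes and 1 of 24 corepressors are not read as results about those lists. The 11 JAK and STAT genes gave 0 calls (edgeR; 2 at an unadjusted p below 0.05).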

How the data were processed

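The authors sequenced stranded mRNA libraries as single-end reads, aligned them to mm10 with STAR 2.5.2, kept uniquely mapped reads and tallied exonic reads per gene by HOMER 4.10. The deposited values are raw counts per gene, with 0 per-sample columns unused. Coordinates are those of the deposited table. Counts were scaled by TMM and tested with edgeR 4.0.16 under R 4.3.3 (quasi-likelihood test) (filterByExpr by group, Benjamini-Hochberg over all genes tested, threshold 0.05), on the 8 libraries of a within-sex or within-genotype comparison and on all 16 otherwise. DESeq2 1.42.0 was an alternative, as was upper quartile scaling, no filter, a replicate block, sample number sets, a B-cell covariate and leaving out each library. The floor of 3 counts corresponds to 0.0485 to 0.190 CPM, a floor that covers counting error only, and fold intervals use the t distribution on residual degrees of freedom. Groups came from the sample titles. The labels do not say that libraries came from separate animals, so p-values measure the spread between libraries. Replicates differed beyond sampling noise in all 24 pairs (chi-square per degree of freedom of 8.84 to 29.4). On simulated counts with 15598 genes and both sexes, 99.3% of genes changed by 1 log2 unit were recovered, and 5.51% of calls were false. False calls made up 7.58% in males and 7.31% for WT males against females. Genes with the lowest mean levels were not among those changed. For the difference of the genotype effect between the sexes, 88.3% were recovered. Changes below 1 log2 unit, as for the 9 genes, were not simulated, so the recovery of such changes is not known.

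The 9 genes, the pathway lists and the marker lists were chosen with earlier results of these data known. All 9 were named, with every list gene that passed edgeR in a designed comparison, or otherwise the 2 with the smallest p over both sexes, and the 3 most alike genes per member. List genes called in the added sex comparison were named after their values were seen, as were those that DESeq2 called within a sex or genotype. Correlations used log2 CPM with a prior count of 2 and 100000 permutations, two-sided.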

Additional observations from a re-analysis of the deposited data

Results flagged for a closer look

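Of 36 sets of 4 libraries (9 genes in 4 groups), 3 held a library whose gap to its nearest neighbor exceeded Dixon's critical value at the 95% level as a share of the range. Chance alone gives about 1 in 20. Bcl6b in female LKO replicate 3 was the highest of its group at 3.93 CPM, with the next at 2.65 CPM. Socs2 in male WT replicate 4 was the lowest of its group at 40.4 CPM, with the next at 59.2 CPM. Igf1 in male LKO replicate 2 was the highest of its group at 9.33 CPM, with the next at 6.59 CPM. Female LKO replicate 3 was also the library richest in B-cell follicle markers, and the part of that in its Bcl6b level was not tested.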

How the results depend on the processing

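Over 1494 alternative values of the 63 member differences, 52 turned sign, in 16 differences, all without a call. Below, 'between the sexes' stands for the genotype difference in males minus that in females, and 'by sex' for males minus females. With sample number sets these were Bcl6b (-0.11) and Socs2 (0.068) in males, and Stat5b (0.015) and Socs2 (0.011) for the genotype difference between the sexes. With a linear number they were Bcl6b (-0.13) and Ncor1 (0.040) in males, Stat5a over both sexes (-0.032), Cish between the sexes (0.0013) and Bcor by sex in LKO (-0.0075). With the B-cell covariate they were Bcor (0.065), Stat5b (0.041) and Socs2 (0.016) between the sexes and Bcl6 (0.19) and Bcl6b (0.14) by sex in LKO. Without the 4 B-cell-rich libraries, a setting chosen after seeing the data, they were Stat5a in females (-0.011) and over both sexes (-0.049), Bcor (0.062), Stat5b (0.059) and Socs2 (0.029) between the sexes, and Bcl6 (0.18) and Bcl6b (0.063) by sex in LKO. Upper quartile scaling turned Ncor1 between the sexes (-0.019) and Bcor by sex in LKO (-0.024), and thinning female LKO replicate 1 turned Socs2 between the sexes (0.0056). Leaving out each library gave ranges across 0 for Bcl6b (-0.031 to 0.29) and Stat5a (-0.14 to 0.0093) in males, Bcor in females (-0.095 to 0.0080), Bcl6b (-0.16 to 0.00037) and Stat5a (-0.00044 to 0.070) over both sexes, Ncor1 (-0.051 to 0.060), Stat5b (-0.12 to 0.013), Cish (-0.20 to 0.0072) and Socs2 (-0.13 to 0.047) between the sexes, and Bcl6b (-0.26 to 0.089) and Bcor (-0.025 to 0.073) by sex in LKO. The cause of these turns was not tested. In males, however, every WT number was lower than every LKO number, so number and genotype run together. The male values with number sets compare male WT replicate 4 with male LKO replicate 1, since no other set held both male genotypes.

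Members called moved from 0 to 2 in females with DESeq2. Over both sexes they moved from 0 to 1 with DESeq2 and with the B-cell covariate, and ranged from 0 to 1 without each library (1 without male WT replicate 4). By sex in LKO they moved from 0 to 3 with DESeq2, 2 with upper quartile scaling, 2 without the filter, 1 with all 16 libraries in the same fit and 1 without the B-cell-rich libraries, and ranged from 0 to 2 without each library (1 without male LKO replicate 2 or female LKO replicate 2, 2 without female LKO replicate 4). For the added sex comparison they moved from 3 to 1 with number sets and 1 with the linear number, to 2 without the B-cell-rich libraries, and ranged from 3 to 4 without each library (4 without male LKO replicate 4). Marker relations moved from 4 to 0 within groups and ranged from 0 to 7 without each library (0 without male WT replicate 1, male WT replicate 4, male LKO replicate 1 or female LKO replicate 4; 7 without male WT replicate 2 or female LKO replicate 2). Member pairs moved from 3 to 0 within groups, to 0 without the 2 farthest libraries and to 0 without the B-cell-rich libraries, and ranged from 0 to 4 without each library (0 without male LKO replicate 1 or female WT replicates 1, 2 or 3). Of 16 correlations between same-numbered libraries, 2 exceeded 0.1 (-0.10 to 0.26), both between female WT and female LKO. With 4 libraries per group, these values cannot tell whether replicate numbers pair the samples. With a replicate block the members called were 0 in the 6 designed comparisons and 3 in the added one. For Socs2, the genotype difference in males minus that in females then turned to 0.0041. Depth limits Bcl6b most, at 36 to 164 counts per library.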
